A study of Mus musculus with 4 samples.

Results

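Recovery from a cOS-pulse, a short critical oxidative stress, was followed by setting the array of cells 20 h after the pulse against the array of cells 4 h after it. Both arrays carried RNA of NIH-3T3:Per2-Luc cells, a line of mouse fibroblasts with a luciferase gene driven by the Per2 promoter, that were given 5 mM H2O2 for 10 min. The 2 arrays were chosen by their labels out of the 4 of the series, and no control array enters the ratio. The other arrays were the control, cells given 0 mM H2O2 and fresh medium and labelled 4 h, and pulsed cells at 32 h, and their signals are given beside the ratio for reference. Each condition was 1 array and all 4 arrays lay on 1 slide, so the ratios have no replicate check and no p-values, and time since the pulse, time since the medium change and culture cannot be told apart. Unpulsed cells at 20 h were not analysed here.

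Oxidants such as H2O2 set off several programmes in cells. Nrf2, freed from Keap1, turns on antioxidant genes, HSF1 turns on chaperones, ATF4 turns on amino acid supply when translation is slowed, NF-kappa-B turns on cytokines, and p53 with its target Cdkn1a holds the cell cycle. These programmes are limited by feedback genes of their own, among them the inhibitors of NF-kappa-B, the MAP kinase phosphatases and Mdm2.

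Signals were compared as log2 signal of a probe minus the 75th percentile of its array, here called the level, and a ratio is the level at 20 h minus the level at 4 h. Of 39429 probes, the scanner software marked 23295 as well above background on the 4 h array, 21750 on the 20 h array and 20852 (52.9%) on both, and these last are called measured. Among them, 1881 (9.02%) were at least 2-fold higher at 20 h and 2434 (11.7%) at least 2-fold lower, while 201 and 363 passed 4-fold. The same counts for 32 h over 20 h, which shares the 20 h array, were 92 (0.454%) higher and 39 (0.193%) lower among 20248 probes. For 20 h over the control they were 144 (0.704%) and 420 (2.05%) among 20448. For 32 h over the control, which shares neither array, they were 210 (1.05%) and 299 (1.5%) among 19970. The ratios between 4 h and 20 h thus spread wider than those of these 3 other pairs, none of which holds the 4 h array. Pairs of the 4 h array with the control or 32 h are not given here. The wider spread is therefore not shown to be particular to 20 h over 4 h. The error of a ratio from the scanner software was 0.20 for the median measured probe and covers the spot only. Among 225 probes spotted 10 times, the SD of single-spot ratios had a median of 0.045.

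**Figure D1:**
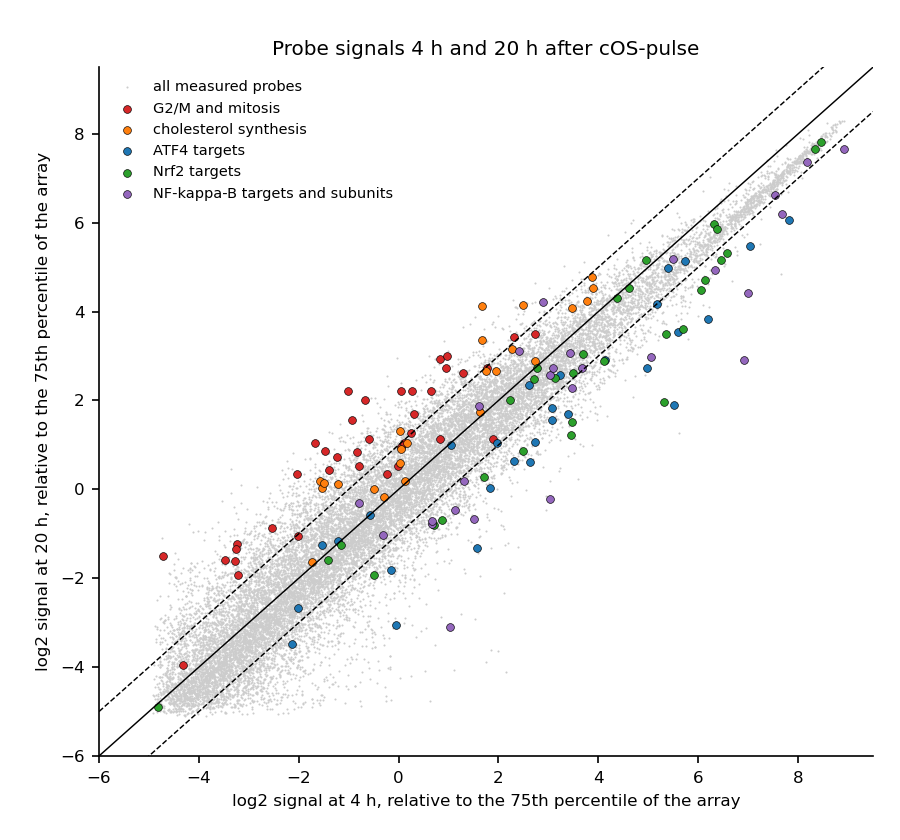
Levels of the 20852 measured probes (grey points) at 4 h (x axis) and 20 h (y axis), each as log2 signal relative to the 75th percentile of the array, with the genes of 5 lists in colour. The solid line marks equal levels and the dashed lines 2-fold, and most genes of G2/M and mitosis lie above the upper dashed line while many ATF4 targets lie below the lower one.

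The probes that were at least 2-fold higher at 20 h had a median level of -0.25 in the control, -1.57 at 4 h, -0.07 at 20 h and -0.11 at 32 h. The probes that were at least 2-fold lower had -1.59, -0.26, -1.86 and -1.84 in the same order. In both classes the medians at 20 h and 32 h were near each other and the 4 h median stood apart, a description only, since the 4 h and 20 h arrays chose the classes. Of the 2434 lower probes, 184 were not well above background in the control, against 15 of the 1881 higher ones. In the control and at 32 h together, 2100 of the lower, 1860 of the higher and 19698 of all 20852 measured probes passed. The lower class was also the dimmer one in the control (-1.59 against -0.25), so this count is no separate result. Levels at 32 h and in the control did not enter the choice of the classes. The 32 h array was close to the 20 h array that did, so comparing 32 h with the control is not independent of that choice. Of the higher probes well above background on those arrays, 58 of 1860 were at least 2-fold higher at 32 h than in the control and 8 lower. Of the lower ones 14 of 2100 were higher and 180 lower. Over all measured probes the share past 2-fold in that comparison was 2.50%, against 3.55% and 9.24% in the higher and the lower class. The lower class was also dimmer at 32 h (-1.84 against -0.22 over all measured probes), and the part of dimness was not tested.

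The split between higher and lower hung on how the arrays were scaled. The 75th percentile rose by 0.61 on the log2 scale from the 4 h to the 20 h array before scaling, the median of all probes by 0.15 and the mean of 8 spike-in probes by 0.02. With the 75th percentile 43.6% of the probes past 2-fold were higher at 20 h, with that percentile taken over the probes found on every array 53.1%, with quantile normalization 57.6%, with the median 79.3%, with the spike-ins 85.7% and with no scaling 86.3%. The median ratio was -0.20 over measured probes and -0.12 over 13706 genes, each taken at its brightest measured probe, and no scaling moved the latter to 0.49. For this reason gene groups are described relative to the median gene. Taken this way, a list median cannot move under the 5 of 12 alternatives that only shift an array by a constant. None of the 27 list medians called here changed sign under the 7 others, and lists that came within 0.32 of the median gene under some of these are named where they are described (0.32 is the distance on the log2 scale from which a list is called higher or lower). Single ratios do move with a constant, and no scaling raised each by 0.61. Of the 13706 genes, 1031 (7.52%) were at least 2-fold higher and 517 (3.77%) lower under all 8 alternatives run for single probes as well, and the members of a list that met this are counted beside it as robust. The rule judges only the brightest probe of a gene, so other probes of a robust gene can differ. Before this rule 1467 were higher and 1561 lower. No scaling raised every ratio, and no alternative lowered all of them, so the rule is stricter for lower genes. Robust counts therefore cannot be compared between the 2 directions. Brightness also moved with the ratio: with the measured probes in 5 classes of equal size, the median was -0.44 in the brightest class, -0.04 in the middle one and -0.32 in the dimmest, so the relation did not run one way. Its part in the results was not tested, and the counts with that trend removed are given with the alternatives.

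**Figure D2:**
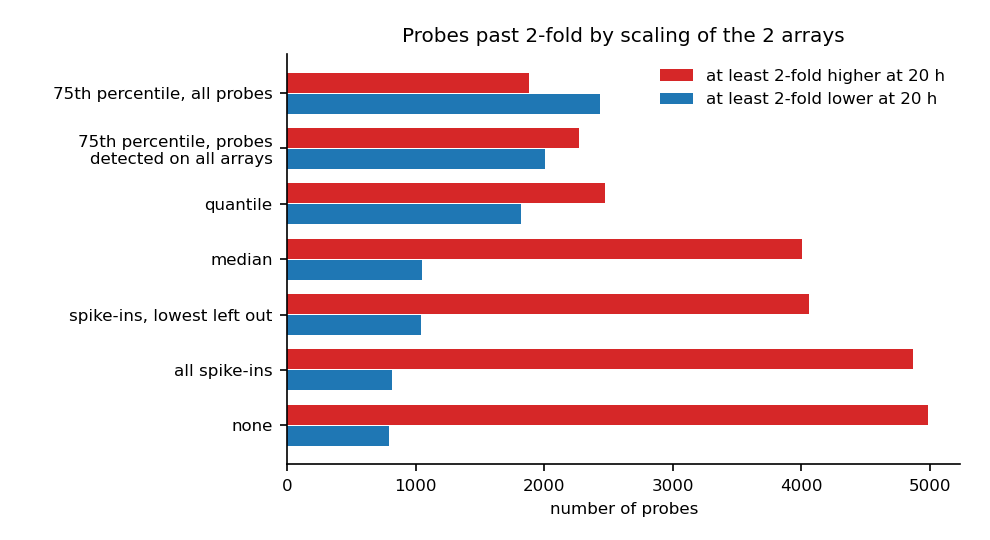
Number of measured probes (x axis) at least 2-fold higher (red) or lower (blue) at 20 h than at 4 h under 7 scalings of the 2 arrays. The lower probes outnumber the higher ones (2434 against 1881) only with the 75th percentile of all probes, and with no scaling 4988 are higher and 790 lower.

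The cells had the markers of fibroblasts on both arrays. Of 15 fibroblast markers, 13 were measured, with a median level of 4.43 at 4 h and 4.01 at 20 h, and Fap and Postn were not well above background on either array. Most markers of other cell types were dim or undetected. Of 8 muscle markers 0 were measured, and 2 passed background on the 4 h array alone. Ptprc of leukocytes, Epcam of epithelium, Tek of endothelium and Lep of adipocytes were not well above background on either array. Exceptions were Itgam of myeloid cells (level 4.92 at 4 h and 3.42 at 20 h) and Snap25 of neurons (4.48 and 2.92), as bright as many fibroblast markers. The other probe of Itgam was dim, at -3.68 at 4 h, and not well above background at 20 h. Cd68 (0.75 and -1.13) and Fabp4 (-1.5 and -4.68) were also higher at 4 h. Cdh5, Pecam1, Krt14 and Krt8 had ratios of -1.15, -0.69, -0.88 and -0.80, and Csf1r, Cd3e, Krt5 and Sox10 lay between -0.53 and -0.17. Aif1, Cd14, Tubb3, Pparg, Kdr and Krt10 had 0.49, 0.22, 0.70, 0.27, 0.03 and 0.02. Among markers that passed background at 4 h alone, Myh3, Adipoq, Vwf and Gfap were at least 5.89-fold, 4.62-fold, 2.97-fold and 2.56-fold lower at 20 h. At 20 h alone, 1 marker of neuron and glia passed. The medians of the measured markers, relative to the median gene, were -1.34 for adipocyte (2 of 7 measured), -0.58 for endothelial (3 of 8), -0.47 for epithelial and keratinocyte (4 of 10), -0.23 for macrophage and leukocyte (6 of 11) and -0.22 for neuron and glia (3 of 8). The adipocyte and epithelial medians came within 0.32 of the median gene under 1 and 2 of the 7 alternatives that can move a list median.

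**Figure D3:**
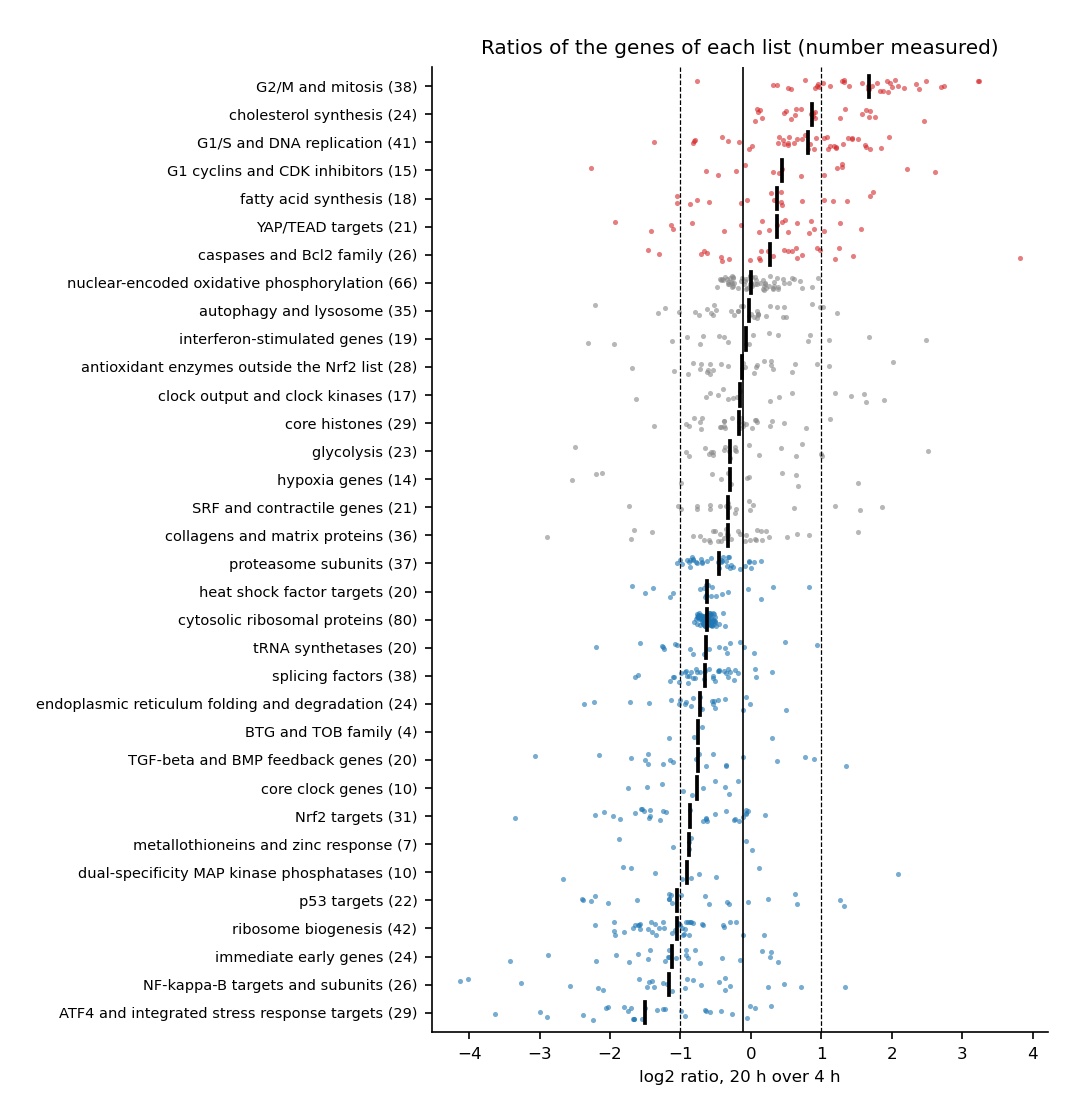
Ratio of 20 h over 4 h on the log2 scale (x axis) for every measured gene (points) of 34 gene lists (y axis, with the number measured), with the list median as a black bar. Red lists have a median at least 0.32 above the median over all genes (solid line), blue lists at least 0.32 below and grey lists neither, the dashed lines mark 2-fold, and G2/M and mitosis stands at the top with a median of 1.67 and ATF4 targets at the bottom with -1.5.

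Genes of cell division made the highest list. Of 43 genes of G2/M and mitosis 38 were measured, and 28 of them were at least 2-fold higher at 20 h (26 robust) and 0 lower, against 10.7% higher and 11.4% lower over all genes. Their median ratio was 1.67, or 1.79 relative to the median gene (1.49 to 1.89 under the alternatives). The median level of these genes was 1.08 in the control, -0.64 at 4 h, 1.05 at 20 h and 0.69 at 32 h, so only the 4 h array stood low. Plk1, the kinase of mitotic entry and spindle assembly, was read by a probe at chr7:129313220-129313279 (mm9). Its level was 2.22 in the control, -1.01 at 4 h, 2.22 at 20 h and 1.72 at 32 h, a ratio of 3.23 ± 0.21 (spot error). Bub1b, which keeps the spindle checkpoint, stood at -1.41, -4.72, -1.5 and -1.96 in the same order, close to background at 4 h. The mitotic cyclin Ccnb1 stood at 1.12, -1.68, 1.05 and 0.67, and the S and G2 cyclin Ccna2 at 1.81, -0.93, 1.55 and 1.11. Each of these 4 genes was lowest at 4 h, and its control and 20 h levels lay near each other. Kinesins of the spindle followed, with ratios of 2.69 for Kif22 and 2.39 for Kif20a. Kif2c, a kinesin that takes apart microtubules, passed background on the 20 h array and failed it on the 4 h array with both of its probes, and by the brighter one was at least 8.46-fold higher at 20 h. The exception in sign was Ccnf, a cyclin of a ubiquitin ligase, with -0.76. Pttg1, which guards sister chromatid cohesion, had probes of 0.97 and -0.99 and is uncertain.

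DNA replication moved the same way and less far. Of 43 genes of G1/S and DNA replication 41 were measured, 17 of them at least 2-fold higher (14 robust) and 1 lower (0 robust), with a median of 0.81 (0.93 relative to the median gene). E2f8, an E2F protein that represses, stood at -0.57 in the control, -2.73 at 4 h, -0.76 at 20 h and -1.04 at 32 h. Rfc2, a subunit of the clamp loader, had a ratio of 1.85 and Pold1, the catalytic subunit of DNA polymerase delta, of 1.63. On the other side, the licensing factor Cdt1 had -0.81 and Mcm7, of the replicative helicase, -0.41. Prim2 of the primase had probes of 1.69 and -0.68, so its direction is uncertain, though by its brightest probe it counts as robust.

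Of 18 G1 cyclins and CDK inhibitors 15 were measured, with a median of 0.43 (0.55 relative to the median gene), 6 at least 2-fold higher (4 robust) and 1 lower. The 1 lower was Cdkn1a, which encodes the CDK inhibitor p21: its level was 0.40 in the control, 3.97 at 4 h, 1.70 at 20 h and 1.72 at 32 h, a ratio of -2.27. At both late hours it stayed above the control. Other inhibitors went the opposite way, Cdkn2d with 2.61 and Cdkn1b with levels of 1.44, 0.41, 1.71 and 1.71. Ccnd1, the cyclin that answers growth factors, was 2.35 in the control, 0.86 at 4 h, 1.18 at 20 h and 1.05 at 32 h, so that it stayed below the control at both late hours. The pocket protein gene Rbl1 had a ratio of 2.21.

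Genes of cholesterol synthesis all lay on one side. All 24 measured genes of 25 had a ratio above 0 with the 75th percentile and above the median gene, and 8 were at least 2-fold higher (all robust), with a median of 0.87 (0.99 relative to the median gene, 0.85 to 1.09 under the alternatives). The median level climbed from 0.29 in the control to 0.90 at 4 h, 1.53 at 20 h and 1.76 at 32 h. The enzymes reached 20 h by different courses. Mvk, mevalonate kinase, read by a probe at chr5:114910540-114910599 (mm9), stood at 2.94 in the control, 1.67 at 4 h, 4.12 at 20 h and 4.16 at 32 h, and was lowest at 4 h. Mvd and Dhcr7, which act further along the pathway, were also lowest at 4 h and had ratios of 1.77 and 1.64. Hmgcs1, a synthase early in the pathway, had 1.67 with levels of 2.77, 2.48, 4.16 and 4.50, also lowest at 4 h. Idi1, which isomerizes isopentenyl diphosphate, stood at 1.42, 2.26, 3.15 and 3.45 and Sqle, squalene epoxidase, at 2.86, 3.78, 4.25 and 4.53, both lowest in the control. Insig1, which holds SREBP2 in the endoplasmic reticulum, had a ratio of 0.06.

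Of 18 genes of fatty acid synthesis all were measured, 5 at least 2-fold higher (all robust) and 2 lower (0 robust), with a median of 0.38 (0.49 relative to the median gene). The elongases Elovl6 and Elovl5 had 1.73 and 1.36 and Acss2, which makes acetyl-CoA from acetate, 1.69. The 2 lower were Fasn, the fatty acid synthase itself, with levels of -2.12, -0.70, -1.75 and -1.45 from the control to 32 h, and Lpin1, a phosphatidate phosphatase, with -1.04, both within 2-fold without scaling. Probes of Acaca, acetyl-CoA carboxylase, ranged from -1.75 to 0.72, and its direction is uncertain.

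Targets of ATF4 made the lowest list. Of 31 genes 29 were measured, 18 of them at least 2-fold lower at 20 h (13 robust) and 0 higher, with a median of -1.5 (-1.38 relative to the median gene, -1.38 to -1.15 under the alternatives). The median level was 1.45 in the control, 2.73 at 4 h, 1.56 at 20 h and 1.60 at 32 h. Amino acid transporters were among the lowest. Slc7a1, which imports arginine and lysine, stood at 2.36 in the control, 5.52 at 4 h, 1.89 at 20 h and 1.89 at 32 h, a ratio of -3.63 ± 0.20. Slc7a5 and Slc3a2, the 2 chains of the exchanger of large neutral amino acids, had -2.99 and -2.38, and at 20 h Slc7a5 (-3.05) lay below the control (-1.76) while Slc3a2 (3.82) lay near it (3.64). Among the enzymes, Mthfd2 of mitochondrial one-carbon metabolism had -2.90, Psat1 of serine synthesis -2.24 and Asns, asparagine synthetase, -2.06. Atf4 itself, which is also controlled at translation, was 6.13, 7.81, 6.06 and 6.09 from the control to 32 h, a ratio of -1.75. Stc2, Aldh1l2 and Gpt2 lay between -0.01 and 0.29. Pycr1, of proline synthesis, passed background on the 4 h array alone and was at least 8.13-fold lower at 20 h, and Slc7a11, the cystine importer counted here with the Nrf2 targets, at least 41.3-fold lower.

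Chaperones of the endoplasmic reticulum followed the same direction. Of 25 genes of folding and degradation 24 were measured, 7 at least 2-fold lower (3 robust) and 0 higher, with a median of -0.72 (-0.60 relative to the median gene). Hspa5, the lumenal HSP70 known as BiP, stood at 5.87 in the control, 7.24 at 4 h, 5.52 at 20 h and 5.95 at 32 h. Dnajb9, its cochaperone, had a ratio of -2.37, Ero1b (listed as Ero1lb), which oxidizes protein disulfide isomerase, -2.23 and Herpud1 of the degradation complex -1.44. Derl2, a further degradation factor, was 0.49. The tRNA synthetases, all 20 measured, had 7 at least 2-fold lower (1 robust) and 0 higher with a median of -0.63 (-0.51 relative to the median gene). Yars and Nars, for tyrosine and asparagine, had the lowest ratios of -2.20 and -1.57, and Mars1 (listed as Mars), for methionine, the highest of 0.94.

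Of 34 Nrf2 targets 31 were measured, 15 of them at least 2-fold lower at 20 h (6 robust) and 0 higher, with a median of -0.87 (-0.75 relative to the median gene, -1.02 to -0.64 under the alternatives). Hmox1, heme oxygenase, read by a probe at chr8:77624207-77624266 (mm9), stood at 2.02 in the control, 5.31 at 4 h, 1.96 at 20 h and 1.88 at 32 h, a ratio of -3.35. Sqstm1, an autophagy receptor that also binds Keap1, had -2.21 and Txnrd1, thioredoxin reductase, -2.08. Gclc and Gclm, the subunits of the first enzyme of glutathione synthesis, had -1.96 and -1.56, and Srxn1, which repairs peroxiredoxins, -1.86. These 6 genes were highest at 4 h and at 20 h lay near the control. Abcc1, an exporter of glutathione conjugates, had levels of 2.16, 2.50, 0.85 and 0.84 and so ended below the control, with -1.65. Others past 2-fold were Mafg, Gsta4, Osgin1, Prdx6, Cat, Esd, Prdx1 and Pgd, with ratios from -1.55 to -1.21, and each of these, like Gclm, was within 2-fold when the arrays were not scaled. Me1, Fth1, Ftl1, Blvrb, Gstm2, Taldo1 and Txn1 lay between -0.87 and -0.36, the last 2 with a change of sign under other scalings. Nqo1, quinone reductase and a common reporter of Nrf2, stood at -1.29, -1.15, -1.26 and -2.33 from the control to 32 h, and its ratio of -0.11 changed sign with the scaling. Gstm1, Gsr, Abcc4, Tkt, Gsta3, Gstp1 and G6pdx lay between -0.24 and -0.05 and Ugdh at 0.20, and of these all but Ugdh also changed sign. Gsta2 passed background on the 4 h array alone and was at least 4.04-fold lower at 20 h.

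Antioxidant enzymes outside that list had no common direction. Of 29 genes 28 were measured, 2 at least 2-fold higher (1 robust) and 2 lower (1 robust), with a median of -0.12, the same as the median gene. Both shares were under the 10.7% higher and 11.4% lower over all genes. The small Maf gene Mafk had -1.69 and Nfe2l2, which encodes Nrf2, -0.89. Txnip, which binds thioredoxin, stood at 2.82 in the control, 0.81 at 4 h, 2.82 at 20 h and 2.71 at 32 h, a ratio of 2.01. Of 8 metallothionein and zinc genes 7 were measured, 2 of them at least 2-fold lower (1 robust), with a median of -0.87 (-0.76 relative to the median gene). The zinc exporter Slc30a1 had -1.88 and Mt2, which binds zinc and copper, -1.10.

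Of 22 heat shock factor targets 20 were measured, 5 at least 2-fold lower (1 robust) and 0 higher, with a median of -0.62 (-0.51 relative to the median gene, and within 0.32 under 2 of 7 alternatives). Hspb8, a small heat shock protein, stood at 2.52 in the control, 4.22 at 4 h, 2.53 at 20 h and 2.66 at 32 h. Dnajb6, an HSP40, had -1.5 with probes from -1.52 to -0.63, and the inducible cytosolic Hsp90aa1 -1.39. Hspa1a, the inducible HSP70, was -2.24, -1.70, -2.02 and -2.11 from the control to 32 h and had a ratio of -0.32, smaller in size than the 0.61 by which scaling shifted every ratio. Hspa4l, an HSP110, was 0.83.

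**Figure D4:**
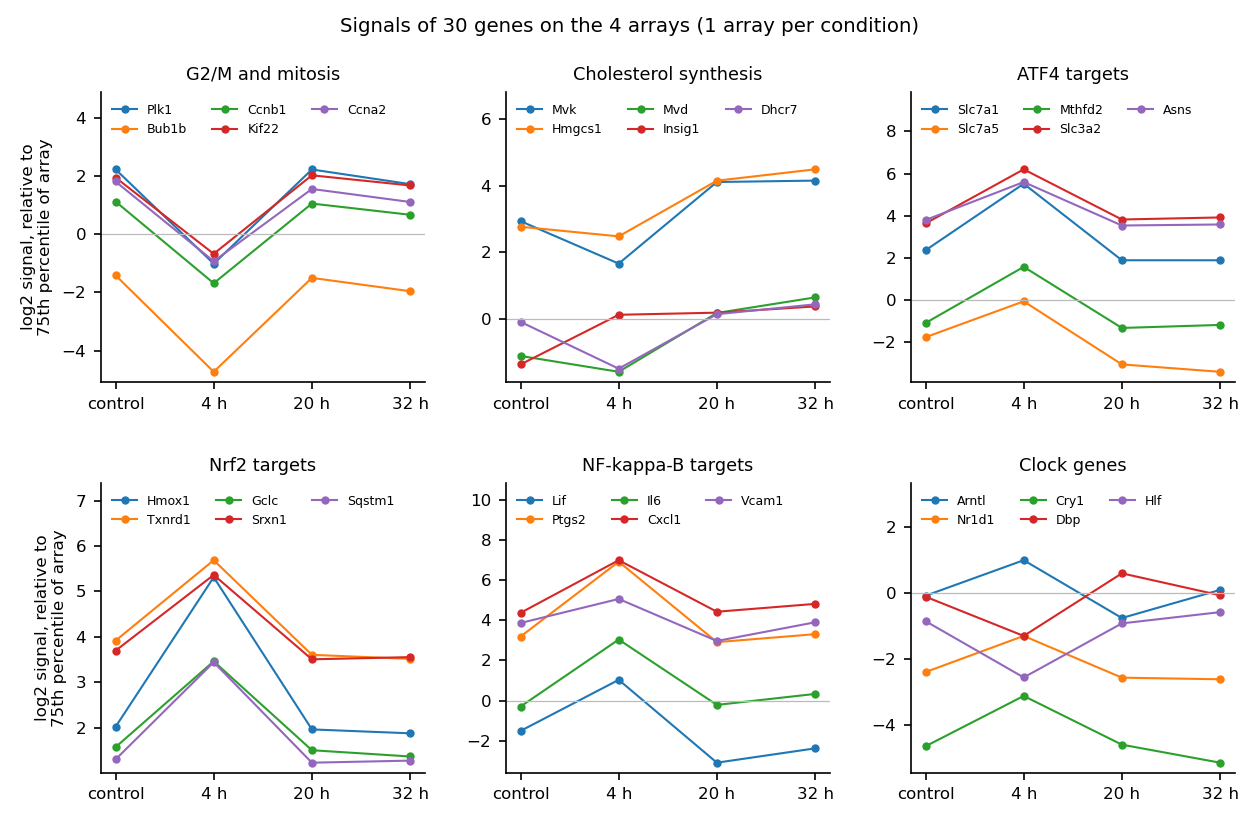
Level, as log2 signal relative to the 75th percentile of the array (y axis, which differs between panels), of 30 genes on the 4 arrays (x axis), 1 array per condition. The lines join the arrays for reading only, and the division genes dip at 4 h (Plk1 from 2.22 in the control to -1.01) while the ATF4, Nrf2 and NF-kappa-B targets shown peak there (Hmox1 at 5.31).

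Cytokines and other targets of NF-kappa-B held some of the deepest ratios. Of 29 genes 26 were measured, 14 of them at least 2-fold lower at 20 h (6 robust) and 1 higher, with a median of -1.16 (-1.04 relative to the median gene). Ptgs2, the inducible cyclooxygenase, read at chr1:151954744-151954803 (mm9), stood at 3.19 in the control, 6.92 at 4 h, 2.91 at 20 h and 3.31 at 32 h, a ratio of -4.01. Lif, a cytokine of the interleukin 6 family, stood at -1.52, 1.03, -3.10 and -2.39 and so was lower at 20 h than in the control. Il6 had -3.26 and the chemokine Cxcl1 -2.57, and both were near the control at 20 h (-0.22 against -0.30 and 4.43 against 4.37). Cxcl10 was level between the control (1.61) and 4 h (1.5) and lower only later (-0.67 at 20 h and -0.81 at 32 h). The feedback genes Tnfaip3 and Nfkbia had -1.59 and -1.41. Subunits moved less, with -0.30 for Rela and -0.36 for Relb, which are smaller in size than the shift made by scaling. Bcl3, a nuclear partner of the p50 and p52 subunits, was 3.29, 2.89, 4.22 and 4.32 from the control to 32 h, the 1 gene that was higher. Birc3 had probes of -1.38 and 0.08 and is uncertain.

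Of 29 immediate early genes 24 were measured, 13 at least 2-fold lower at 20 h (5 robust) and 0 higher, with a median of -1.12 (-1.0 relative to the median gene). Egr1, a zinc finger factor, stood at 1.56 in the control, 2.96 at 4 h, -0.47 at 20 h and -0.58 at 32 h, a ratio of -3.42. The factor Klf4 stood at 1.77, 3.88, 1.0 and 0.65, and both genes ended below the control. Fosb, a partner of Jun in AP-1, had -2.19, Ier2 -1.92, Egr2 -1.73, Ier5 -1.61, Ier3 -1.46, Csrnp1 -1.44, Nr4a1 -1.21, Fosl1 -1.18, Maff -1.17, Btg2 -1.17 and Myc -1.07, and the 8 from Ier5 on were within 2-fold without scaling. Srf, Zfp36, Gadd45b, Nr4a2, Junb and Jund lay between -0.92 and -0.41, and Jun, Klf6, Klf10, Fosl2 and Klf2 between -0.15 and 0.38, and Jund and Jun changed sign with the scaling. Jun was nearly level on the 4 arrays, with 5.74, 5.72, 5.57 and 5.71. Fos and Arc passed background on the 4 h array alone and were at least 5.11-fold and 7.64-fold lower at 20 h, Egr3 did so on the 20 h array alone with a bound of 1.79-fold higher, and Nr4a3 and Atf3 were not well above background on either array.

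Phosphatases that switch off MAP kinases followed: of 12 genes 10 were measured, 4 at least 2-fold lower (3 robust) and 1 higher, with a median of -0.91 (-0.79 relative to the median gene). Dusp10, which acts on p38 and JNK, stood at -0.33 in the control, 1.74 at 4 h, -0.93 at 20 h and -1.27 at 32 h, and Dusp4 had -1.82. The 1 higher was Dusp14 with -0.17, -1.89, 0.19 and 0.03. Of the 6 antiproliferative BTG and TOB genes 4 were measured, with a median of -0.75 (-0.63 relative to the median gene), from -1.17 for Btg2 to 0.30 for Tob1.

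Of 26 p53 targets 22 were measured, 11 at least 2-fold lower at 20 h (6 robust) and 2 higher (1 robust), with a median of -1.05 (-0.93 relative to the median gene). Their median level was 0.64 in the control, 2.41 at 4 h, 1.41 at 20 h and 1.42 at 32 h, so that late levels stayed between the control and 4 h. Tnfrsf10b, a death receptor, and the kinase Plk2 both had -2.39, with 20 h levels of -0.63 and 1.14 against -0.58 and 1.29 in the control. Mdm2, the ubiquitin ligase that removes p53, was 3.82, 5.43, 4.26 and 4.15 from the control to 32 h. Zmat3, an RNA binding protein, and Ccng1 had -1.61 and -1.17 and stayed above the control at 20 h (1.58 against 1.11 and 1.76 against 1.03). Going the other way, Sesn1, an inhibitor of mTORC1 signalling, had 1.32 and Ddb2, which finds ultraviolet lesions, 1.26, both lowest at 4 h. Gdf15 and Eda2r passed background on the 4 h array alone and were at least 2.57-fold and 3.78-fold lower at 20 h.

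Of 32 names of caspases and the Bcl2 family 26 were measured, 4 at least 2-fold higher (3 robust) and 2 lower (0 robust), shares not far from the 10.7% and 11.4% over all genes, with a median of 0.28 (0.40 relative to the median gene). Bmf, a proapoptotic BH3-only protein, had the highest ratio, in the direction of 20 h over 4 h, of any named probe: -0.38 in the control, -3.36 at 4 h, 0.45 at 20 h and 0.15 at 32 h, a ratio of 3.81 ± 0.24. Casp9, the initiator of the mitochondrial pathway, and Casp12 had 1.46 and 1.19. Bcl2l11, which encodes Bim, stood at -3.51, -1.93, -3.40 and -3.36, and its ratio was within 2-fold without scaling.

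Factors that build ribosomes were higher at 4 h almost throughout. Of 42 genes of ribosome biogenesis all were measured, 24 of them at least 2-fold lower at 20 h (7 robust) and 0 higher, with a median of -1.05 (-0.93 relative to the median gene). Ddx21, a nucleolar helicase, stood at 1.82 in the control, 3.94 at 4 h, 1.72 at 20 h and 1.61 at 32 h. Gnl3, a nucleolar GTPase, had -1.95 and Tsr1, of small subunit assembly, -1.94. Ubtf, which positions RNA polymerase I, was the exception with 0.18, and its other probe had -0.75. The ribosomal proteins themselves lay in a narrow band: all 80 were measured, 0 passed 2-fold in either direction, and every ratio lay between -0.81 for Rps3 and -0.37 for Rpl3, with a median of -0.63 (-0.51 relative to the median gene). These are among the brightest probes, their list came within 0.32 of the median gene under 2 of 7 alternatives, and with the trend of the ratio with signal removed it was -0.07 relative to the median gene. Splicing factors, all 38 measured, had a median of -0.66 (-0.54 relative to the median gene) with 6 at least 2-fold lower (1 robust) and 0 higher, led by Srsf7 with -1.64 and Hnrnpa2b1 with -1.60. The share lower was not far from the 11.4% over all genes, and the robust share was under the 3.77% over all genes. The 37 proteasome subunits, all measured, had -0.45 (-0.34 relative to the median gene, within 0.32 under 5 of 7 alternatives), with 2 at least 2-fold lower, Psmd11 and Psmd8, both within 2-fold without scaling. Their share lower was under the 11.4% over all genes. The 66 nuclear-encoded subunits of oxidative phosphorylation had a median of 0.00 (0.12 relative to the median gene) and none past 2-fold, from -0.48 for Cox4i1 to 0.95 for Ndufs3.

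Some TGF-beta feedback and matrix genes stood lower at 20 h than in the control. Of 22 TGF-beta and BMP feedback genes 20 were measured, 9 at least 2-fold lower at 20 h (3 robust) and 1 higher, with a median of -0.76 (-0.64 relative to the median gene), and their median level was 0.65 in the control, 0.78 at 4 h, -0.79 at 20 h and -0.67 at 32 h. Inhba, a chain of activin, stood at -1.06, 0.80, -2.26 and -1.88 from the control to 32 h. Pmepa1, an inhibitor of TGF-beta signalling, was level between the control (0.87) and 4 h (0.77) and at -1.39 at 20 h. The inhibitory Smad7 had -1.46, and the ID proteins, which block bHLH factors, -1.70 for Id2 and -1.47 for Id1. Tgfb3, a ligand, was lowest at 4 h and had 1.34. Of 42 collagens and matrix proteins 36 were measured, 4 at least 2-fold lower (3 robust) and 1 higher (0 robust), with a median of -0.33 (-0.21 relative to the median gene). The lower share is near the 11.4% over all genes and the higher one under the 10.7%, so the list as a whole did not stand apart. Timp3, an inhibitor of metalloproteases, stood at 0.03, -0.94, -3.83 and -4.06, and the proteoglycan Bgn at 1.49, 1.03, -0.64 and -0.22. The protease Mmp3 had -1.70, whereas the fibrillar collagen Col1a2 was 0.14.

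Targets of YAP and TEAD were split. Of 25 genes 21 were measured, 3 at least 2-fold higher (2 robust) and 4 lower (1 robust), with a median of 0.37 (0.49 relative to the median gene). Over all genes 10.7% were higher and 11.4% lower. The matricellular genes Ccn1 (listed as Cyr61) and Ccn2 (listed as Ctgf) differed in course: Ccn1 stood at 1.08 in the control, 0.83 at 4 h, -1.10 at 20 h and -0.96 at 32 h, and Ccn2 at -0.05, -4.28, -3.01 and -3.27. Ankrd1, an ankyrin repeat target, had 1.57 and also stayed below the control at 20 h. Of 26 names of SRF and contractile genes 21 were measured, 3 at least 2-fold higher (all robust) and 2 lower (1 robust), with a median of -0.32 (-0.20 relative to the median gene). The shares past 2-fold were not far from those over all genes. Cnn2, a calponin, had 1.87 and Filip1l 1.55. Acta2, smooth muscle actin, stood at 0.04, -2.76, -3.52 and -3.07, low on all 3 arrays of pulsed cells. Mylk and Tgfb1i1 had probes past 2-fold in both directions and are uncertain. By their brightest probes alone, Mylk is the 1 robust lower gene counted above and Tgfb1i1 is among the robust higher ones.

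Of 16 core clock genes 10 were measured, all 10 with ratios below the median gene, 3 at least 2-fold lower (1 robust, Arntl) and 0 higher, with a median of -0.76 (-0.65 relative to the median gene, -0.77 to -0.37 under the alternatives). Arntl, which encodes BMAL1, the partner of CLOCK, stood at -0.08 in the control, 1.0 at 4 h, -0.75 at 20 h and 0.10 at 32 h, a ratio of -1.75. The repressor Cry1 stood at -4.63, -3.11, -4.58 and -5.13 and Nr1d1, which encodes the repressor REV-ERB alpha, at -2.39, -1.29, -2.56 and -2.60, both dim and within 2-fold without scaling. Bhlhe40 had -0.96, Cry2 -0.84, Clock -0.68, Nr1d2 -0.51, Rora -0.37, Per1 -0.30 and Per2 -0.19, and the last 4 changed sign under other scalings. Per2, whose promoter drives the luciferase of this line, was close to background on every array, at -4.68, -4.46, -4.65 and -5.40. Per3 passed background on the 20 h array alone, with a bound of 1.27-fold higher, and Npas2, Rorb, Bhlhe41 and Ciart (listed as Gm129) were on neither array well above background.

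Of 19 clock outputs and clock kinases 17 were measured, 5 at least 2-fold higher (3 robust) and 1 lower, with a median of -0.15 (-0.03 relative to the median gene). The PAR bZIP factors Dbp and Hlf, which BMAL1:CLOCK drives through E-boxes, had 1.90 and 1.64: Dbp stood at -0.10, -1.29, 0.60 and -0.06 from the control to 32 h and Hlf at -0.85, -2.55, -0.91 and -0.57. The third factor, Tef, had -0.15, and Nfil3, their repressor, 0.40. Arntl was thus highest at 4 h and lowest at 20 h, and Dbp lowest at 4 h and highest at 20 h. Timeless had 1.61 and Wee1, a kinase that delays mitosis, 1.19, the latter within 2-fold under another alternative. Csnk2a2, a catalytic subunit of CK2, had -1.63 on its brighter probe and 0.23 on another, while Csnk2a1 and the regulatory Csnk2b had -0.20 and -0.25. The 1 lower gene counted above is Csnk2a2, by that brighter probe alone. Of the remaining genes, Fbxw11, Klf9, Csnk1d and Csnk1e lay between -0.64 and -0.33 and Tsc22d3 and Usp2 at 0.28 and 0.59. Klf9, Csnk1d, Csnk1e, Csnk2a1, Csnk2b and Tef changed sign under other scalings. Btrc had probes past 2-fold in both directions, and Fbxl21 and Ppp1r3c were not well above background on either array.

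The sequences before the start of genes were searched for elements of these programmes, to show what the genes of a list share beside their ratios. RefSeq promoters (GRCm38.p6, 250 bases before to 50 after the start) covered 80.1% of the 12001 measured genes with a RefSeq symbol and 80.9% of those at least 2-fold higher, but 76.8% of those at least 2-fold lower, so no share is given for the last. The elements, searched on both strands, were the cell cycle homology region CHR (TTTGAA), the endoplasmic reticulum stress element ERSE (CCAAT and CCACG with 9 bases between them), the C/EBP-ATF response element CARE (TGATGNAA), the antioxidant response element ARE (TGACNNNGC) and the heat shock element HSE (GAA, TTC and GAA with 2 bases between neighbours). The ERSE holds a CCAAT box, and an ARE can overlap an AP-1 site (TGACTCA). Shown are the 250 bases before the start of 6 genes from these lists, chosen after their matches were seen, in lower case with the match in capitals.
Prc1, CHR, chr7:80294226-80294475, + strand: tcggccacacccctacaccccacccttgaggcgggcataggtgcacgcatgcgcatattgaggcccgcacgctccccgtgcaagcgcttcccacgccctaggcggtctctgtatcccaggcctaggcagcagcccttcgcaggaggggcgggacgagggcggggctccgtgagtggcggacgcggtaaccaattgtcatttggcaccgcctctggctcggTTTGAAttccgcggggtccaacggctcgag
Cdc20, CHR, chr4:118437344-118437593, - strand: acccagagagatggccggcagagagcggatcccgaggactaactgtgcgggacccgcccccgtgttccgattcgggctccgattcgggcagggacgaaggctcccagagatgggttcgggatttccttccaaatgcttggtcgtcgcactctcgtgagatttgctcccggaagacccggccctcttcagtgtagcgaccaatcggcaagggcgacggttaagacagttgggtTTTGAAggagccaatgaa
Hspa5, ERSE, chr2:34771840-34772089, + strand: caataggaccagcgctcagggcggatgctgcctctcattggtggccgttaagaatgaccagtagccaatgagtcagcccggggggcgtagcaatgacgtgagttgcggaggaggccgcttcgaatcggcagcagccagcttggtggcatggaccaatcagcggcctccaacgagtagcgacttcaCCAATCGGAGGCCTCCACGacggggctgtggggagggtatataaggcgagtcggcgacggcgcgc
Asns, CARE, chr6:7693210-7693459, - strand: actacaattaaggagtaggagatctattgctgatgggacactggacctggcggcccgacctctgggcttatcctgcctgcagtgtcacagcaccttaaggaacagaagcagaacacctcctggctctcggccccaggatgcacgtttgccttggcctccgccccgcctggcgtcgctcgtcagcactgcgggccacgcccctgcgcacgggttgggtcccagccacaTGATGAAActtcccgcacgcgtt
Prdx1, ARE, chr4:116685349-116685598, + strand: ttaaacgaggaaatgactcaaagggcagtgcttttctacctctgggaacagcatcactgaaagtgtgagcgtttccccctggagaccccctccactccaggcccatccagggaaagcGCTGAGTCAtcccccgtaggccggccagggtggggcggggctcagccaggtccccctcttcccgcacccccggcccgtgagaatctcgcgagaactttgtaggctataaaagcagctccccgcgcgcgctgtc
Dnajb6, HSE, chr5:29735648-29735897, + strand: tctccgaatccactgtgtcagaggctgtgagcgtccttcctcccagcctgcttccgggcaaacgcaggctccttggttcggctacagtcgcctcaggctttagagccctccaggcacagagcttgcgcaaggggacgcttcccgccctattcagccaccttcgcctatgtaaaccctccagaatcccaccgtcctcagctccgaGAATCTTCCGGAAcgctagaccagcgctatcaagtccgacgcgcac

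The CHR was found in 71.4% of the 35 promoters of measured G2/M and mitosis genes, against 12.4% of the promoters of all measured genes and 17.9% of every promoter in the table. A CCAAT box was in 80% of the 35, against 38.2% and 37.4%. It was also in 85.7% of the promoters of endoplasmic reticulum genes and 75% of those of core clock genes, lists with the opposite direction. The CCAAT box thus does not set the G2/M list apart. Prc1, which bundles the central spindle, and Cdc20, which activates the anaphase ligase, carried the CHR 30 and 18 bases before the start, and their ratios were 2.09 and 1.79. The ERSE was in 42.9% of the 21 promoters of endoplasmic reticulum genes, against 0.115% of those of all measured genes and 0.119% of every promoter, and that of Hspa5 (ratio -1.72) began 65 bases before the start. The HSE was in 30.4% of 23 promoters of heat shock factor targets against 0.451% and 0.603%, among them Dnajb6, whose promoter has 2 starts in the table and is shown for the first. The ARE was in 36.4% of 33 promoters of Nrf2 targets against 14.3% and 12.4%, and in Prdx1 the match holds an AP-1 site. The CARE was in 19.4% of 31 promoters of ATF4 targets against 2.38% and 3.97%, and that of Asns lay 23 bases before the start. An ARE was in 35.5% of the ATF4 promoters as well. The Nrf2, heat shock factor and ATF4 lists hold targets of the factors that bind the ARE, HSE and CARE. Their higher shares thus follow in part from how the lists were made and do not bear on the ratios. How far the ERSE and CHR shares follow from the choice of the endoplasmic reticulum and G2/M genes was not tested. These shares are not evidence about the ratios either. Across all genes at least 2-fold higher at 20 h the CHR was in 14.1% of promoters, and the E-box (CACGTG) was in 7.84% against 9.85% of the promoters of all measured genes. A match is a description of these letters. Of the 12 promoters of core clock genes, 2 (16.7%) held an E-box. None of the 12 held a D-box (TTATGTAA), but it was in only 0.590% of the promoters of all measured genes. With 12 promoters, its absence does not set the clock genes apart.

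**Figure D5:**
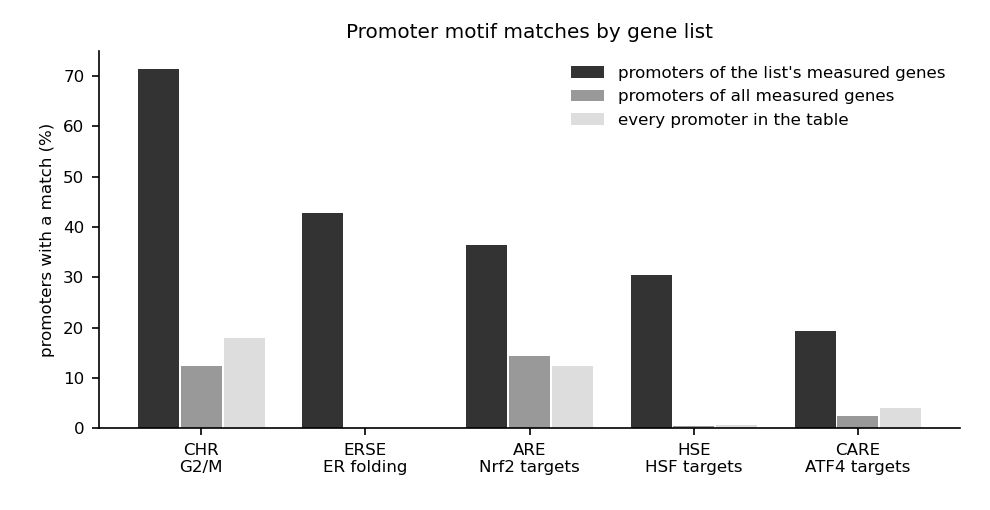
Share of promoters with a match (y axis, percent) for 5 elements, in the measured genes of the list named under each bar group (dark), in all measured genes (grey) and in every promoter of the table (light). Each of these 5 elements, picked from those searched, is more frequent in its own list, from 71.4% for the CHR in G2/M and mitosis to 19.4% for the CARE in ATF4 targets. The Nrf2, heat shock factor and ATF4 lists hold targets of the factor that binds the element. Higher shares there follow in part from how the lists were made and do not bear on the ratios. For the ERSE and CHR this was not tested, and their shares are not evidence about the ratios either.

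Beyond the lists, the largest ratios belonged to probes that were dim on every array but the 4 h array. Gzmm, which encodes a granzyme of lymphocytes, had the lowest ratio of all, with levels of -3.55 in the control, 2.15 at 4 h, -4.11 at 20 h and -3.96 at 32 h, a 76.7-fold difference (probe at chr10:79157946-79158005, mm9). Ovgp1, an oviduct glycoprotein, had 49.9-fold and Amhr2, the receptor of anti-Mullerian hormone, 41.9-fold. Also among the 10 lowest probes were Gm3448 with 2 probes (49.6-fold and 24.6-fold), Amy1 (36-fold), Slc8a2, Adssl1, Col7a1 (the anchoring collagen) and Nlrp5. Amy1 has near-identical copies, so its probe may read more than 1 gene. Of the 2443 probes that passed background at 4 h and failed it at 20 h, 1173 (48.0%) were at least 2-fold lower by their bound, and 941 of these were not well above background in the control or at 32 h either. The same held for 2047 of all 2443, a similar share, so it does not set the probes past 2-fold apart. The largest bounds were for Col20a1, at least 103-fold and 58.4-fold on its 2 probes, Il18r1, at least 72.5-fold, 2610528A11Rik, at least 65.4-fold, and Myo15, at least 50.7-fold.

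In the other direction 898 probes passed background at 20 h and failed it at 4 h, of which 308 (34.3%) were at least 2-fold higher by their bound, and 135 of these were also above background in the control and at 32 h. Of all 898, 219 were above background on those arrays. The largest bounds were different in kind: Rhox10, Vmn1r202, Adam33 and Gstm4, at least 14.8-fold, 12.8-fold, 11.1-fold and 9.76-fold higher, were above background on the 20 h array alone, and Aqp5, a water channel, at least 8.56-fold, stood at -0.54 in the control and -1.31 at 32 h. The largest measured ratios after Bmf were Gprc5d with 12.5-fold, again high at 20 h alone, Tnfsf14, a ligand of the tumour necrosis factor family, with 10.7-fold, and Rpusd3, Zfp467, Slc46a3 and Engase, between 9.63-fold and 9.76-fold. Plk1, Bub1b and Rfxank completed the 10.

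Among probes at or above the 75th percentile on both arrays (7674 with a gene name), 420 were at least 2-fold higher and 637 lower. The lowest was Ereg, epiregulin, a ligand of the EGF receptor, with levels of 1.83 in the control, 5.61 at 4 h, 1.27 at 20 h and 1.36 at 32 h, 20.2-fold lower at 20 h. Ptgs2, Slc7a1, Hmox1 and Klf4 were among the 10, with Tcim (listed as 1810011O10Rik) at 10.3-fold, Cgref1 at 7.19-fold, Il1rl1, a receptor of interleukin 33, at 7.10-fold, Ptges, the prostaglandin E synthase that works with Ptgs2, at 6.72-fold and Plaur, the urokinase receptor, at 6.58-fold. Cgref1 was level between the control (2.74) and 4 h (3.03) and stood at 0.18 at 20 h. The highest were Mvk with 5.47-fold, Cavin2 (listed as Sdpr), a coat protein of caveolae, with 5.43-fold, Mmp11, a metalloprotease of stroma, with 5.28-fold and Amdhd2 with 5.15-fold, followed by Zcchc24 on 2 probes, Spsb2, Pdlim2, Anln of the contractile ring, and Cnnm2. Cavin2 stood at 3.53 in the control, 0.91 at 4 h, 3.35 at 20 h and 3.0 at 32 h, lowest at 4 h as were all 10 of these probes.

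Probes of 1 gene did not always go together. Of 3666 genes with more than 1 measured probe, 443 (12.1%) had ratios that spread over more than 1 on the log2 scale. Of the 1067 with a probe past 2-fold, 385 had every probe past 2-fold the same way and 17 had probes past it in both directions.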

How the data were processed

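RNA extracted with Trizol Plus was labelled with Cy3 and hybridised to mouse gene expression microarrays (probe annotation mm9). The deposited intensities were made by the authors with Feature Extraction 10.7.3.1, per the file headers, which subtracts local background and spatial trend from each spot and does not scale between arrays. A deposited table of intensities, each array divided by 1 constant, served as an alternative.

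Control spots and outlier-flagged spots were left out, spots of 1 probe were averaged, and log2 intensities were centred on the 75th percentile of the array. A ratio was kept where the probe was well above background on both arrays, and otherwise given as a bound against the lowest signal that was. The deposited background and outlier marks are flags of the scanner software, a unit of their own. A gene is its brightest measured probe, and symbols were updated by RefSeq accession (27234 of 33183 named probes). The steps were tested on simulated data. With 1 array per time point, precision is limited by that number, and no test was run.

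The arrays, gene lists and measures were chosen with earlier results of these data known. Named were the 10 probes with the largest ratio each way, over all and over bright probes, the 5 largest bounds each way, the 3 genes at each end of a list, and the members of the clock, immediate early and Nrf2 lists. Other genes were named after their values were seen, and some genes that these rules would name are not reported here. Alternatives were 5 other scalings, normexp background correction, other detection filters, flagged spots kept, the deposited table, other probe rules and other fold thresholds. Promoters came from a RefSeq table (GRCm38.p6) and were searched on both strands, with no share given for a set with under 80% of its genes in the table. Python 3.11.15, numpy 2.4.6, pandas 2.3.3, scipy 1.17.1, R 4.3.3 and limma 3.58.1 were used.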

Additional observations from a re-analysis of the deposited data

How the results depend on the processing

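No paired analysis was possible because each time point was 1 array. With the 75th percentile there were 1881 probes at least 2-fold higher and 2434 lower, a share of 43.6% higher and a median ratio of -0.20. Median scaling gave 4006, 1046, 79.3% and 0.27, spike-in scaling 4873, 816, 85.7% and 0.40, and no scaling 4988, 790, 86.3% and 0.41, in the same order. Quantile normalization gave a share of 57.6% and a median of 0.018, and the percentile over probes detected on all arrays 53.1% and -0.088. Normexp gave 1244 higher (40.8%), the looser flag of positive and significant signal 4716 lower (34.2%), no filter 2894 and 7097 (29%), and counting bounds 37.8%. One value per gene gave 1561 lower (48.4%), a threshold of 1.5-fold 3713 and 5877 (38.7%), of 3-fold 553 and 831 (40.0%), and probes at or above the 75th percentile 431 and 726 (37.3%). Of the alternatives chosen after seeing the data, centring on the median of measured probes gave 60.6% higher, removing the trend with probe GC 38.7%, removing the trend with signal 56.2%, and spike-ins without the lowest probe 4062, 1038, 79.6% and 0.28. For scaling by a constant the difference follows from the constant subtracted, and for the filters and thresholds from the probes counted. Otherwise the cause was not tested.

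List medians relative to the median gene cannot move under the 5 of 12 alternatives that shift an array by a constant. Under the 7 others (280 medians of 40 lists), 0 changed sign among the 27 called lists and 22 of these stayed called throughout. Of 176 named probes past 2-fold, 122 were past it the same way under all 8 alternatives run for them and 0 changed sign. Probes near background had larger spot errors (0.43 for Sox10 against a median of 0.20).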

Other observations

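Several lists without a common direction held single genes with large ratios. The counts of these lists stand beside 10.7% at least 2-fold higher and 11.4% lower over all genes. Among 23 measured glycolysis genes the median was -0.30 (-0.18 relative to the median gene), with 3 at least 2-fold higher and 1 lower, of which 1 each way stayed past 2-fold under all 8 alternatives run for single probes. Hk2, the inducible hexokinase, stood at -0.96 in the control, 0.59 at 4 h, -1.91 at 20 h and -1.81 at 32 h, and Bpgm, which makes 2,3-bisphosphoglycerate, at -0.79, -4.47, -1.96 and -1.96. Among 14 measured hypoxia genes the median was -0.30, with 1 higher and 3 lower. The vasodilator gene Adm, Vegfa and Ndrg1 had ratios of -2.53, -2.20 and -2.11, while Bnip3, a receptor of mitophagy, had 1.52 and stood at 4.10, 3.02, 4.53 and 4.77.

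Interferon-stimulated genes were split, with 3 of 19 measured higher, 3 lower and a median of -0.07. Ifit2 stood at 0.06, -2.39, 0.09 and 0.10 from the control to 32 h and had a ratio of 2.49, whereas its relative Ifit1 stood at -2.40, -0.99, -2.93 and -2.99 with -1.94. Autophagy and lysosome genes had 2 of 35 higher, 4 lower and a median of -0.02. After Sqstm1 the lowest were Atp6v1h, of the proton pump, with -1.32 and Gabarapl1 with -1.21, and the highest was Tfeb, a factor of lysosomal genes, with 1.22, and these 3 were within 2-fold under another alternative. Of 29 measured genes of the histone list 1 was higher and 1 lower, and the median was -0.17. The higher one was H1f5 (listed as Hist1h1b) with 1.12, which encodes a linker histone and not a core histone. The lower one was H3c8 (listed as Hist1h3g) with -1.38, within 2-fold without scaling. Histone genes have near-identical copies, so these probes are uncertain.

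The neuronal marker gene Rbfox3 stood at -2.35 at 20 h and was not well above background on the 3 other arrays. With Rhox10, Vmn1r202, Adam33, Gstm4 and Gprc5d it was high on that array alone.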
